A study of Mus musculus with 2 samples.

Results

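The genes of cytosolic ribosomal proteins were followed in the newborn mouse ovary. They were chosen by symbol: genes whose symbols matched a fixed pattern of Rpl, Rps, Rplp and Rpsa names were members, which gave 83 of 31057 genes. Second copies of some members, among them Rpl39l, Rpl22l1 and Rps27l, were named beforehand as departing from the family, so their choice is not a result. Some ribosomal protein copies, such as Rpl36al and Rps27rt, fell outside the pattern and are described near the end. The 2 libraries, replicate 1 and replicate 2, were made by droplet sequencing of the 3′ ends of polyadenylated RNA from whole ovaries of female CD1 mice at postnatal day 2. CD1 is an outbred stock, no genotype or treatment was applied, and each library pooled the ovaries of several pups of a single dam. Single animals therefore cannot be told apart. The p-values rest on the spread between 2 such pools, estimated over all cell classes together rather than in the compared classes alone. The values are counts of unique molecular identifiers (UMIs), one for each RNA molecule captured, and the 2 libraries held 54471790 and 59074480 of them in 4094 and 4847 cell barcodes. The study used these libraries to place proteins of interest in ovarian cell types, and the comparison made here is between cell types.

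Cells were put into 5 classes by a few marker genes. Germ cells were gated on Ddx4, Dazl and Ooep and split at 10000 UMIs into RNA-rich and low-RNA cells, granulosa cells (the follicle cells around the oocyte) on Foxl2, Fst and Wnt6, interstitial cells (the stroma) on Col1a2 and Dcn, and mesothelial cells (the ovarian surface) on Upk3b. Replicates 1 and 2 gave 212 and 434 RNA-rich germ cells, 18 and 203 low-RNA germ cells, 1617 and 581 granulosa cells, 1305 and 2238 interstitial cells, and 157 and 234 mesothelial cells. These classes are ranges on a marker level rather than types, and the granulosa gate was the least sharp, with 209 and 417 cells just below its level and 223 and 421 just above. Markers that were not used for gating followed the names: a list of 7 germ cell genes summed to between 58.6 and 77.7 UMIs per 10000 in the germ classes and to at most 0.598 in the somatic ones. The mesothelial cells also carried 8.52 and 7.40 UMIs per 10000 of a granulosa list that stood at 16.9 and 16.4 in granulosa cells. In turn, granulosa cells carried 5.60 and 12.55 of a mesothelial list that stood at 46.0 and 44.8 in mesothelial cells. Erythroid genes reached 14.6 per 10000 in interstitial cells of replicate 2 against 0.309 in replicate 1, and 9.20 against 1.36 in granulosa cells. The libraries shared 21 barcodes, 12 of them in gated cells.

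The cytosolic ribosome has a large subunit, built with the Rpl and Rplp proteins, and a small subunit, built with the Rps proteins and Rpsa. Their mRNAs are among the most abundant of a cell, and most of them begin with a C followed by a run of pyrimidines, the 5′ terminal oligopyrimidine (TOP) start through which mTOR signalling sets how well they are translated. A few members have a second copy elsewhere in the genome that encodes a similar protein and is used in particular tissues. A growing oocyte stores ribosomes and mRNAs for the embryo.

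The sequences of 1 such pair are shown because its paralog, Rpl39l, had the most UMIs of the copies seen in germ cells and near 0 in somatic cells. Rpl39l (GRCm38 chromosome 16, 10170226 to 10174911, plus strand) and its parent Rpl39 (chromosome X, 37082520 to 37085402, minus strand) encode a small protein at the exit tunnel of the large subunit. The coding sequences, both 156 bases long in the GENCODE annotation, are given 5′ to 3′ with the 23 differing bases in capitals, an identity of 85.3%.
Rpl39l: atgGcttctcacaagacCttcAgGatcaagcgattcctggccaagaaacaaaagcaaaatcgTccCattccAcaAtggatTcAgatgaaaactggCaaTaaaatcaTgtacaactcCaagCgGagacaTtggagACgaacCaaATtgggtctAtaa
Rpl39: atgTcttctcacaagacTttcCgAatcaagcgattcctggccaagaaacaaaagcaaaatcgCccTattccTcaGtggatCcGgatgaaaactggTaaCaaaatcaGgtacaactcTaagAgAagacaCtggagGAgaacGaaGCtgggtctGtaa
The longest run that annotated transcripts of the 2 genes share is 38 bases. For the other pairs it is between 11 bases (Rps27l and Rps27) and 26 bases (Rpl22l1 and Rpl22), and identity of the coding sequences runs from 54.5% (Rpl7l1 and Rpl7) to 84.8% (Rpl10l and Rpl10).

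The starts of the paralogs and parents are shown because a TOP start is described for most mRNAs of the family. Rpl22 and Rps27l have 2 RefSeq entries each, of which the first is shown, and the counts below accept any entry of a gene. Each line holds 15 bases before and 15 from the RefSeq start (GRCm38.p6, strand of the gene), and capitals mark a C followed by at least 4 pyrimidines (C or T) that begins within 5 bases of that start, on the strand of the gene.
Rpl39: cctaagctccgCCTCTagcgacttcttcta
Rpl39l: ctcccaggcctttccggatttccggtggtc
Rpl10: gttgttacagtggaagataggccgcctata
Rpl10l: tttggcctccattttgcggctggcggtggg
Rpl22: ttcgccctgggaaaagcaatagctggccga
Rpl22l1: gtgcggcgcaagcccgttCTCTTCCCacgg
Rps27: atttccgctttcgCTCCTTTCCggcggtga
Rps27l: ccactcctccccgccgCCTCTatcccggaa
The windows lie, in this order, at chrX:37085208-37085237, chr16:10170213-10170242, chrX:74270801-74270830, chr12:66284387-66284416, chr4:152325711-152325740, chr3:28805493-28805522, chr3:90213634-90213663 and chr9:66946071-66946100. Of the 83 members, 63 had a RefSeq start, and 29 of them (46.0%) held such a run within 5 bases, against 21.2% of the 27025 genes with an entry. Exactly at the annotated start it was found in 13 of the 63 (20.6%), against 3.01% of all. The motif CCGGAAG, read on both strands in the 250 bases before the start, was found in 19 members (30.2%) and in 7.83% of all genes. These are matches of letters at annotated starts, which can lie some bases away from the start used in these cells.

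The family took a large part of the RNA molecules captured in every class, and the least in germ cells. Its share of UMIs was 21.4% and 22.0% in the RNA-rich germ cells of replicates 1 and 2, or 21.7% ± 0.431 (SD, n = 2 libraries). Low-RNA germ cells gave 21.7% and 19.8%, granulosa cells 24.3% and 26.4%, interstitial cells 23.9% and 25.1%, and mesothelial cells 27.9% and 27.7%. Mesothelial cells were highest in both libraries, and both germ classes were below every somatic class of either library. For low-RNA germ cells of replicate 1 this gap depended on the settings: they gave 23.1% with thinned cells and 23.92% with the germ split at 20000 UMIs, against 23.93% in interstitial cells. Granulosa and interstitial cells, at 25.3% ± 1.51 and 24.5% ± 0.813, differed by less than the spread of granulosa cells between the libraries, and their order turned in replicate 1 with cells thinned to 2000 UMIs, at 23.8% and 24.01%. The germ classes also differed by less than the spread, and their order turned between the libraries. The libraries are 2 per class, so no test of the share was made. Counting error was small beside this, with 95% exact binomial intervals from 21.3% to 21.4% for RNA-rich germ cells of replicate 1 and from 21.3% to 22.1% for the 18 low-RNA germ cells of that library, and such intervals cover counting error only.

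**Figure D1:**
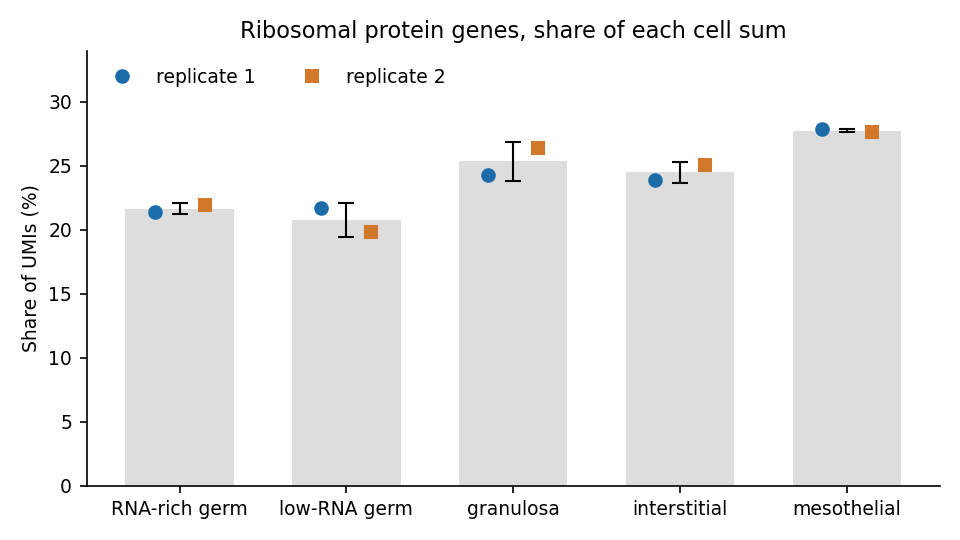
Share of UMIs from the 83 ribosomal protein genes in each class, in percent. Circles are replicate 1 and squares replicate 2, bars are the mean and error lines the SD of the 2 libraries; mesothelial cells stand highest at 27.9% and 27.7%, and both germ classes lie below the somatic classes.

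RNA-rich germ cells were chosen for holding over 10000 UMIs, so that a high depth was set by their gate. The median RNA-rich germ cell held 79430 and 61500 UMIs and the median low-RNA germ cell 2152 and 2213. The somatic medians lay between 5062 and 14130. With each cell thinned to 2000 UMIs, the share in RNA-rich germ cells was 21.4% and 22.0%, and in the somatic classes it was between 23.8% and 27.3%. Thinning weighs the cells alike but leaves the expected share of each cell as it was. It therefore cannot test whether the share goes with depth. In molecules rather than shares, the median RNA-rich germ cell held 17410 and 13610 UMIs of the family. The median low-RNA germ cell held 427.5 and 404, and the median granulosa cell 2463 and 2418. Within germ cells the share was lowest in the cells with the fewest UMIs. All cells kept held at least 500 genes, so cells of up to 1000 UMIs had to spread them over many genes. The part of this filter in the low share was not tested. It was 16.1% and 15.5% in cells of up to 1000 UMIs (2 and 30 cells), 18.3% and 18.7% in cells of 1000 to 3000 UMIs (10 and 104 cells), and between 20.1% and 24.5% in each class over 10000 UMIs. The 3000 to 10000 class gave 24.8% in replicate 1, from 6 cells, and 20.7% in replicate 2, from 69.

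**Figure D2:**
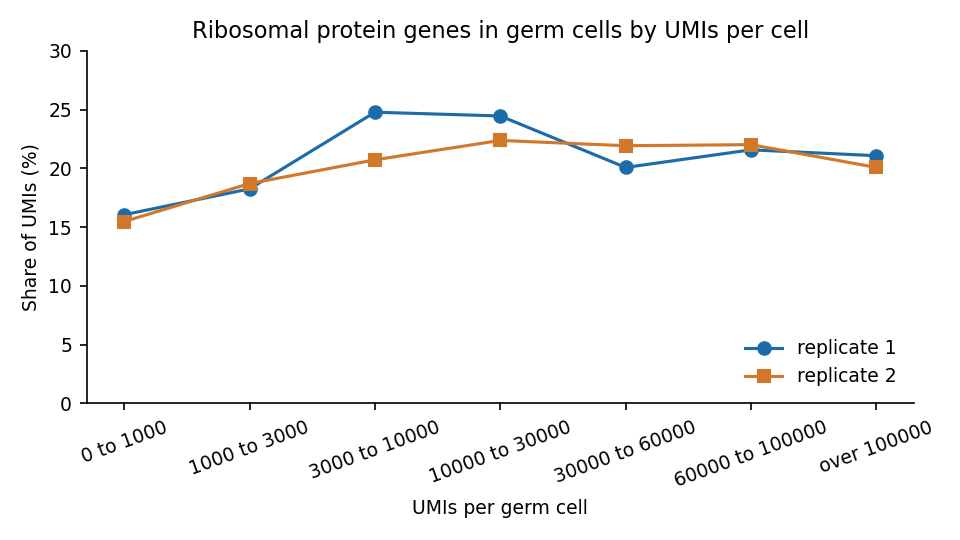
Share of UMIs from ribosomal protein genes (percent) in germ cells grouped by their UMIs per cell. All cells passed the filter of 500 genes, which the cells with the fewest UMIs pass only if these fall on many genes. Lines join the classes of replicate 1 (circles) and replicate 2 (squares); both libraries are lowest in cells of up to 1000 UMIs, at 16.1% and 15.5%, and bins of replicate 1 under 10000 UMIs hold 10 cells or fewer.

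In interstitial cells the share also went with the cell cycle. Cells with at least 2 UMIs of the proliferation genes Mki67 and Top2a gave 21.6% and 23.1% in replicates 1 and 2, and interstitial cells with no UMI of either 25.03% and 25.8%. The cycling interstitial cells had more UMIs, with medians of 9074 and 7907 against 6016 and 4640. Granulosa cells with and without these genes gave 24.3% and 24.1% in replicate 1. In replicate 2 they gave 27.9% and 26.0%. In both libraries this order was opposite to that of interstitial cells, though in replicate 1 the values were close. Mesothelial cells gave 27.5% and 27.9% in replicate 1 and 27.7% and 27.0% in replicate 2. By the median cell they gave 25.2% and 27.4% in replicate 1 and 25.8% and 25.7% in replicate 2. Cycling cells had more UMIs here too. Their medians were 15940 and 15610 against 9321 and 8645 in granulosa cells, and 21660 and 20140 against 10810 and 8360 in mesothelial cells. The part of depth was not tested.

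The single members of the family did not move as one between germ and somatic cells. Counts were summed per library and class, all genes were fitted together with edgeR's quasi-likelihood test, and a gene was called at an adjusted p under 0.05 (Benjamini-Hochberg over 14902 genes). Levels below are UMIs per 10000 UMIs of the class, and fold changes are log2 values from the fit. The SE given with a fold change is its size divided by the square root of the F statistic of its test. Of the 82 members tested, 33 were lower and 6 higher in RNA-rich germ cells than in the mean of granulosa, interstitial and mesothelial cells, and 43 were not called. Over all genes 37.8% were called lower and 40.2% higher. In this fit the share of members called lower was therefore near the background, and the share called higher was below it. The median log2 fold change was -0.28 over the members and 0.01 over all genes. By library, 68 of 82 members were lower in replicate 1 and 58 of 82 in replicate 2. The split depended on the method. DESeq2, which has its own scaling and test, called 70 members lower and 3 higher, where 6979 and 4534 of 14902 genes were called. The median of all genes lay at -0.41 there and that of the members at -0.70. Scaling by genes other than members gave 49 members lower and 7 higher, with 5838 and 5915 of all genes. Cells thinned to 2000 UMIs gave 53 and 6, with 3324 and 3187 of 9698 genes. The library as a block gave 40 and 7, with 5763 and 6113 of 14902 genes. Library sizes alone gave 41 and 9, with 5591 and 6150 of 14902. The germ split at 20000 UMIs gave 41 and 7, with 5593 and 5948 of 14841. No filter on low counts gave 41 and 7 of 83, with 6183 and 6819 of 22399. Under these settings the share of members called lower was above that of all genes. That share stayed closer to all genes with a stricter gate (33 of 82), doublets kept (32) and a mitochondrial limit of 5% (30).

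Few members changed by more than 2-fold. Past the threshold and over a 2-fold change, 6 members were called lower and 2 higher, against 29.2% and 29.8% of all genes. Rpl3, a core protein of the peptidyl transferase centre, was at 12.1 and 12.9 UMIs per 10000 in RNA-rich germ cells, and between 30.6 and 38.8 in the 6 somatic sums. The groups were far apart, with a log2 fold change of -1.54 (SE 0.19, adjusted p = 1.3e-05). Rpl9, of the large subunit, stood at 13.9 and 13.7 in RNA-rich germ cells and between 32.9 and 47.1 in somatic cells, a change of -1.49 (SE 0.14, adjusted p = 1.32e-06). Rplp0, which anchors the stalk that elongation factors bind, was at 18.9 and 19.6, below every somatic value from 32.9 to 56.6 (log2 fold change -1.28, SE 0.18, adjusted p = 3.22e-05). Rps9, of the small subunit, was at 18.5 and 19.9 and between 33.9 and 44.7 in somatic cells, a change of -1.10. Rpl3, Rpl9, Rplp0 and Rps9 were called lower under all 11 settings of the analysis.

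Among the 5 members with the most UMIs, 1 went the other way. Rpl41, the smallest protein of the large subunit, was at 52.8 and 51.0 per 10000 in RNA-rich germ cells and between 57.6 and 88.6 in somatic cells (log2 fold change -0.51). Rpl13 was at 45.0 and 49.8 against 63.8 to 74.6 (-0.58), and Rps19, a gene mutated in Diamond-Blackfan anaemia, at 44.2 and 49.7 against 61.3 to 77.0 (-0.57). Rps14 was at 47.2 and 51.6, and its somatic values from 50.5 to 71.4 overlapped them across the libraries but not within either. It was not called (-0.36, adjusted p = 0.0814) except with the library as a block (adjusted p = 0.0148) and other settings, 7 of 11 in all. Rps23, a protein of the decoding centre, was higher, at 64.4 and 70.2 per 10000 in RNA-rich germ cells against 44.0 to 53.9 in somatic cells (log2 fold change 0.44, SE 0.14, adjusted p = 0.0141). The other canonical members called higher were Rps20, at 36.0 and 40.4 against 23.7 to 30.4 (0.49), and Rpl35, at 28.3 and 21.3 against 13.7 to 20.9 (0.54). Rps23, Rps20 and Rpl35 were each called under 10 of 11 settings. With DESeq2, where the median of all genes lay at -0.41, they were at 0.02, 0.07 and 0.12. They were not called there, with adjusted p values of 0.908, 0.623 and 0.566.

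**Figure D3:**
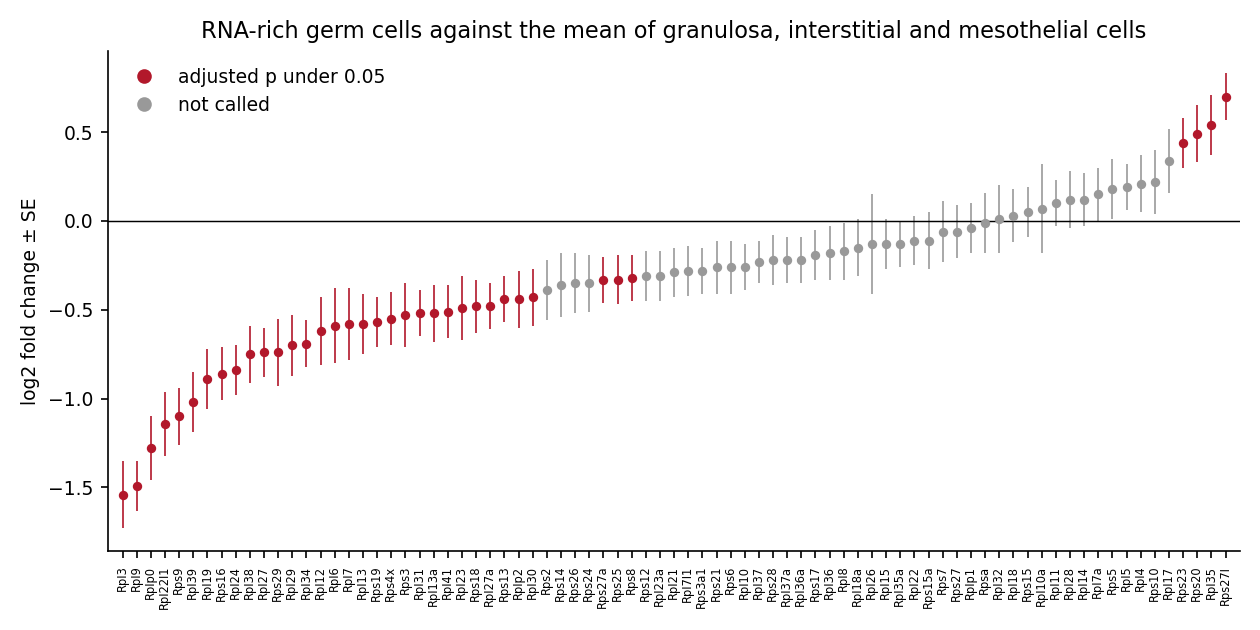
Log2 fold change (with SE taken from the test statistic) of ribosomal protein genes, RNA-rich germ cells over the mean of the 3 somatic classes, in order of size. Red points were called at an adjusted p under 0.05 and grey points were not; Rpl39l (6.73) and Rpl10l (7.08) lie above the plotted range and are left out, and most points lie below 0, down to Rpl3 at -1.54.

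Of the paralogs, Rpl39l and Rpl10l lay far above all other members in RNA-rich germ cells against somatic cells, while every other member tested lay between -1.54 and 0.70 on the log2 scale. Rpl39l was at 2.90 and 2.78 UMIs per 10000 in RNA-rich germ cells of replicates 1 and 2 and at 1.64 and 2.49 in low-RNA germ cells. In granulosa cells it was at 0.0207 and 0.0357, in interstitial cells at 0.0187 and 0.0324, and in mesothelial cells at 0.0142 and 0.0344. Germ and somatic values did not overlap, and the log2 fold change was 6.73 (SE 0.23, adjusted p = 4.19e-10), between 6.31 and 6.85 over the settings. By library it was 7.21 in replicate 1 and 6.37 in replicate 2. The somatic sums held 4 to 46 UMIs of Rpl39l, and the SE, taken from the test statistic, does not give the precision of its change. Its parent Rpl39 moved the other way: it was at 17.9 and 15.8 in RNA-rich germ cells and between 29.9 and 40.5 in somatic cells (-1.02, SE 0.17, adjusted p = 0.000142). Rpl39l therefore made up 14.0% and 14.96% of the UMIs of the pair in RNA-rich germ cells, 8.64% (95% exact interval 3.55% to 17.0%) and 12.5% in low-RNA germ cells, and at most 0.118% in a somatic sum. Since 3′ counting gives one count per molecule, the UMIs of a pair were compared without dividing by length.

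Rpl10l, an intronless copy (GRCm38 chromosome 12, 66283379 to 66284401, minus strand) of the X-linked Rpl10, showed the same pattern at a lower level. Rpl10, on which the last step of large subunit maturation depends, was at 28.5 and 27.4 per 10000 in RNA-rich germ cells and between 27.5 and 35.8 in somatic cells, and within each library below all 3 somatic classes (log2 fold change -0.26, adjusted p = 0.0837, and 0.0651 with the library as a block; called under 5 of 11 settings). Rpl10l was at 0.445 and 0.519 in RNA-rich germ cells and at 0.235, from 1 UMI, and 0.398 in low-RNA germ cells. No somatic sum held more than 7 of its UMIs, and the mesothelial cells held 0 and 1. The fitted log2 fold change was 7.08 (SE 0.26, adjusted p = 6.61e-10) and lay between 5.74 and 7.11 over the settings. Because of these low counts its size depends on the prior count of the fit. For the same reason its SE, taken from the test statistic, does not give its precision. Rpl10l was 1.54% and 1.86% of the UMIs of its pair in RNA-rich germ cells and at most 0.0235% in somatic cells.

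Rpl39l was found in a large part of the germ cells, and Rpl10l in fewer. With every cell thinned to 2000 UMIs, 42.5% and 41.0% of RNA-rich germ cells and 40.0% and 39.3% of low-RNA germ cells (10 and 122 cells deep enough) held a UMI of Rpl39l, against at most 0.855% of any somatic class. Without thinning these shares were 212 of 212 cells and 99.5% in RNA-rich and 33.3% and 43.8% in low-RNA germ cells, and at most 5.56% in somatic classes, at median depths of 79430, 61500, 2152 and 2213 UMIs in the germ classes and at most 14130 in somatic ones. Rpl10l was found in 9.43% and 11.5% of thinned RNA-rich germ cells, in 0 of 10 (which allows a share of up to 30%) and 6.56% of low-RNA germ cells, and in at most 0.347% of somatic cells. The somatic level of Rpl39l was between 0.491% and 1.28% of that in RNA-rich germ cells, and 7 oocyte genes had medians between 0.473% and 0.974% in the same somatic sums. In replicate 1 Rpl39l stood at 0.713%, 0.643% and 0.491% in granulosa, interstitial and mesothelial cells, where the highest oocyte gene was at 0.739%, 0.637% and 1.23%. In replicate 2 it stood at 1.284%, 1.17% and 1.24%, slightly above the highest oocyte gene at 1.278%, 1.16% and 1.09%. How much of the somatic UMIs came from oocyte RNA was not tested.

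Rpl22l1 and Rps27l were found in every class. Rpl22l1 (chromosome 3, 28805436 to 28807424, plus strand), whose product can take the place of Rpl22 in the large subunit, was at 7.65 and 8.54 per 10000 in RNA-rich germ cells and between 15.9 and 19.0 in somatic cells (log2 fold change -1.14, SE 0.18, adjusted p = 8.16e-05). Rpl22 was at 11.3 and 10.1 against 9.56 to 12.6, with overlapping groups and a fold change of -0.11 (adjusted p = 0.476). The paralog was therefore the minor member of the pair in RNA-rich germ cells, with 40.5% and 45.9% of its UMIs, and the major one in somatic cells, with 57.6% to 64.8%. Low-RNA germ cells gave 41.4% and 55.7%.

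Rps27l (chromosome 9, 66946086 to 66949516, plus strand), a p53 target that encodes a copy of the small subunit protein Rps27, was higher in germ cells. It was at 8.55 and 8.55 per 10000 in RNA-rich germ cells against 4.42 to 5.62 in somatic cells (log2 fold change 0.70, SE 0.13, adjusted p = 0.000426), and stayed called under all 11 settings, from 0.28 to 0.77. Rps27 itself was at 51.1 and 50 against 46.7 to 59.2 (-0.06, adjusted p = 0.736). Rps27l made up 14.3% and 14.6% of its pair in RNA-rich germ cells and between 7.80% and 10.2% in somatic cells.

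The remaining paralogs gave little. Rpl7l1, a nucleolar relative of Rpl7, was at 0.650 and 0.744 per 10000 in RNA-rich germ cells against 0.762 to 0.912 in somatic cells and was not called (-0.28, adjusted p = 0.083), whereas Rpl7 was at 17.4 and 18.2 against 22.3 to 30.5 (-0.58, adjusted p = 0.0172). Rpl3l, the muscle copy of Rpl3, had 24 UMIs in all barcodes and was the 1 member that did not enter the test. Of these, 16 fell in RNA-rich germ cells (9 and 7) and 1 in granulosa cells. Rps4l was not analysed here.

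**Figure D4:**
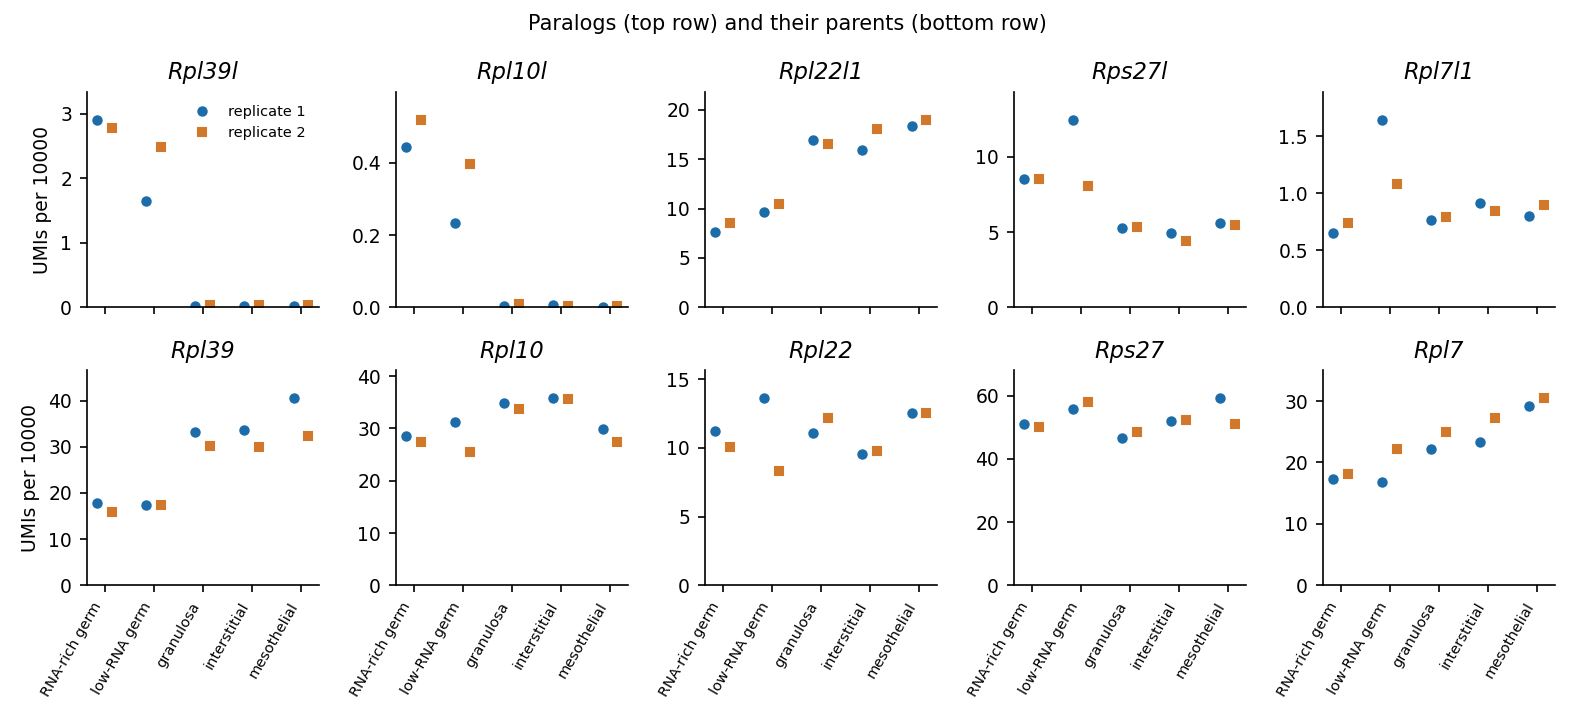
Levels of 5 paralogs (top row) and their parents (bottom row) in UMIs per 10000 by class, each panel on its own axis from 0. Circles are replicate 1 and squares replicate 2; Rpl39l and Rpl10l are seen in germ cells and lie near 0 in somatic cells, Rpl22l1 is lower and Rps27l higher in RNA-rich germ cells than in somatic cells.

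Within the pool of ribosomal protein UMIs, RNA-rich germ cells differed from somatic cells slightly in the subunit balance and in single members. The 5 members with the most UMIs held 12.3% of the pool, and 76 of 83 members had over 100000 UMIs. Genes of the large subunit made up 54.3% and 54.0% of the pool in RNA-rich germ cells and between 55.3% and 56.3% in somatic cells, without overlap, and 53.5% and 55.1% in low-RNA germ cells. The 4 X-linked members (Rpl10, Rpl36a, Rpl39 and Rps4x) together held 4.73% and 4.50% of the pool in RNA-rich germ cells, 5.28% and 5.02% in granulosa, 6.01% and 5.82% in interstitial, and 5.24% and 4.95% in mesothelial cells. The members whose pool share was most below the somatic mean in RNA-rich germ cells were Rpl3, with 0.566% and 0.588% against 1.25% to 1.55% in somatic cells, and Rpl9, with 0.651% and 0.623% against 1.20% to 1.94%. Those whose share was most above the somatic mean were Rpl39l and Rpl10l, at 0.136% and 0.126% and at 0.0208% and 0.0236% of the pool.

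Few members were called between somatic classes, though most lay on the same side in the comparisons with mesothelial cells. Between granulosa and interstitial cells 1 of 82 members was called lower and 0 higher, against 18.8% and 20.8% of all genes (edgeR; at an unadjusted p under 0.05, 3 lower and 0 higher). That member was Rplp0, at 32.9 and 38.6 per 10000 in granulosa and 54.0 and 56.6 in interstitial cells (log2 fold change -0.68, SE 0.20, adjusted p = 0.0178), and it was called under all 11 settings. Rpsa, which encodes a small subunit protein also described as a laminin receptor, was at 16.8 and 21.1 against 24.7 and 26.7 (-0.49, adjusted p = 0.0874). Rps4x was at 37.9 and 44.7 against 48.6 and 56.1 (-0.40, adjusted p = 0.093), and Rpl36, Rpl26 and Rpl9 had the highest changes, at 0.38, 0.37 and 0.31, and were not called. With the library as a block Rpsa (adjusted p = 0.024) and Rps4x (0.0342) were also called, so that 3 members were lower. For the whole split, library sizes alone gave 4 higher and 4 lower, and DESeq2 gave 3 higher and 6 lower. A stricter gate gave 14 lower and thinning 8 lower. The medians were then -0.185 and -0.128 over members and -0.119 and -0.095 over all genes. The erythroid genes given above were high in interstitial and granulosa cells of replicate 2, and their part in these values was not tested.

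Against interstitial cells, 3 members were called higher in mesothelial cells and 0 lower by edgeR, where 16.1% and 16.3% of all genes were called. At an unadjusted p under 0.05 it was 11 higher and 0 lower, DESeq2 called 22 and 1, and the median change was 0.21 over members and -0.05 over all genes. Among the called members were Rpl36 (35.5 and 30.6 against 24.8 and 22.0 per 10000, log2 fold change 0.52, adjusted p = 0.0495) and Rpl34 (35.3 and 33.8 against 24.8 and 26.4, 0.45, adjusted p = 0.0446). Both lay just inside the threshold. Rpl26 had the largest change, 0.91, but was not called (SE 0.35, adjusted p = 0.0649): it was at 36.9 in both mesothelial sums and at 15.4 and 24.4 in interstitial cells. The lowest were Rpl10, Rplp0 and Rpl4, at -0.29, -0.17 and -0.12. With the library as a block 9 members were called higher, Rpl26 among them (adjusted p = 0.00165), and with a mitochondrial limit of 5% edgeR called 0 (8 higher and 0 lower at an unadjusted p under 0.05). With a stricter gate 1 member was lower and with thinned cells 1 was higher and 1 lower. The median of the members was then -0.01 and 0.00, and that of all genes -0.24 and -0.23.

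Between granulosa and mesothelial cells Rpsa alone was called, at 16.8 and 21.1 per 10000 in granulosa and 29.7 and 31.3 in mesothelial cells (log2 fold change -0.76, SE 0.21, adjusted p = 0.0257). That is 1 member lower and 0 higher, where 9.87% and 10.1% of all genes were called (edgeR; 6 lower and 1 higher at an unadjusted p under 0.05, and 16 and 1 with DESeq2). Rpl26 and Rplp0 followed at -0.54 and -0.52 and were not called, and Rpl9, Rpl10 and Rpl38 were highest, at 0.38, 0.18 and 0.08. With the library as a block Rpl26 (adjusted p = 0.0448) and Rplp0 (0.0311) were called as well. Mesothelial cells carried the granulosa markers given above and granulosa cells the mesothelial ones, and the part of either in these values was not tested.

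No direction could be read between the germ classes. RNA-rich against low-RNA germ cells gave 17 members higher and 0 lower with edgeR, where 1.71% and 0.134% of all genes were called (74 and 0 at an unadjusted p under 0.05, and 9 and 0 with DESeq2). The TMM scaling factor of the sum of 18 low-RNA cells was 1.74, where the other sums had between 0.878 and 1.24, and its part in the calls was not tested alone. The fitted median of all genes lay at 0.47 and that of the members at 0.72, but by library the members were below all genes in replicate 1 (0.80 against 1.70) and above them in replicate 2 (0.66 against 0.47). With library sizes alone 0 members were called (6 higher and 2 lower at an unadjusted p under 0.05). With the library as a block 58 were. Rplp1, Rplp2 and Rps9 had the highest changes, at 1.03, 0.99 and 0.97, and Rpl7l1, Rpl22l1 and Rpl27 the lowest, at -0.22, 0.28 and 0.36. As levels, Rps9 was at 18.5 and 19.9 per 10000 in RNA-rich and at 17.8 and 13.5 in low-RNA germ cells.

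Genes that act on ribosomes outside the family were read in the same comparison of RNA-rich germ with somatic cells, on the same background of 40.2% of genes higher and 37.8% lower. Of 40 nucleolar assembly factors, 23 were higher and 7 lower, with a median log2 fold change of 0.56. The 2 with the largest change were Utp4, of the small subunit processome (1.58 and 1.64 per 10000 against 0.182 to 0.278, log2 fold change 2.80), and Nmd3, the adaptor that exports the large subunit (1.97 and 2.18 against 0.254 to 0.374, 2.70). Mitochondrial ribosomal protein genes, which build the ribosome inside mitochondria, counted 56 of 77 higher and 4 lower with a median of 0.87, led by Mrpl24 (2.34) and Mrpl55 (2.29). The chaperones and importins of ribosomal proteins had 4 of 11 higher and 4 lower, with the related genes Pdcd2l (2.61) and Pdcd2 (1.96) at the top.

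Initiation factors were 13 of 27 higher and 7 lower, with a median of 0.29. Eif4e1b, the oocyte form of the cap-binding protein, was at 0.217 and 0.230 per 10000 in RNA-rich germ cells and at no more than 0.00310 in a somatic sum (fitted log2 fold change 8.11, a size that depends on the prior count), and Eif5a2 was at 0.260 and 0.207 against 0.0249 to 0.0574 (2.63). Regulators of TOP mRNAs and mTOR were 7 of 13 higher and 3 lower: Larp1b, a relative of the TOP-binding protein Larp1, was at 1.02 and 1.07 against 0.0345 to 0.0956 (4.01), and Larp6, which binds collagen mRNAs, was the other way, with 0 and 0.000783 in RNA-rich germ cells against 0.00132 to 0.0704 in somatic cells (fitted log2 fold change -4.78, SE 0.78, again of a size that depends on the prior count). Of 7 genes of ribosome storage and rescue 4 were higher and none was lower, with Ccdc124, a factor of dormant ribosomes, at 3.02 and 3.23 against 0.596 to 0.977 (2.03) and Hbs1l at 0.94.

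Of 16 other genes with a TOP start, 8 were lower and 3 higher in RNA-rich germ cells, with a median of -0.31, near the members' -0.28. Tpt1, a very abundant TOP mRNA, was at 11.8 and 12.7 per 10000 against 28.9 to 40.9 (log2 fold change -1.51), and Eif3k was at 11.4 and 12.4 against 4.07 to 6.31 (1.13). Of 6 genes listed as elongation factors by their symbols, 2 were higher, Eef1e1 and Eef2 (0.62), and 1 was lower. What each product does was not examined. Eef1a1, which brings tRNA to the ribosome, was at 42.3 and 38.2 against 55.4 to 67.4 (-0.63), and Eef1e1 at 1.62 and 1.74 against 0.392 to 0.591 (1.76). In the somatic comparisons these lists had between 0 and 6 called genes in a direction, and in RNA-rich against low-RNA germ cells 0 to 9 higher and 0 lower. Examples are Larp1b (1.33) and Larp6 (-3.51) in granulosa against interstitial cells, and Mrpl34 (1.30) and Ltv1 (-1.30) in mesothelial against interstitial cells.

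The libraries differed in several members, read here in the 4 classes other than low-RNA germ cells. The measure is the log2 ratio of the pool share in replicate 2 to that in replicate 1, over the 80 members with at least 50 UMIs in each sum, and the members named were chosen after their values were seen. The median size of the mean difference was 0.065. Rpl35 was lower in replicate 2 by 0.40 to 0.46 in all 4 classes, and Rps2 by 0.30 to 0.42. Rpl29, Rps29, Rpl38, Rpl13a and Rpl39 were among others lower in all 4 classes, with means of -0.38, -0.36, -0.32, -0.3 and -0.26. Rpl10a was higher in replicate 2, by 0.28 to 0.39. Rpl26 was higher by 0.47 to 0.59 in RNA-rich germ, granulosa and interstitial cells and by 0.01 in mesothelial cells. What differed between the libraries was not tested.

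**Figure D5:**
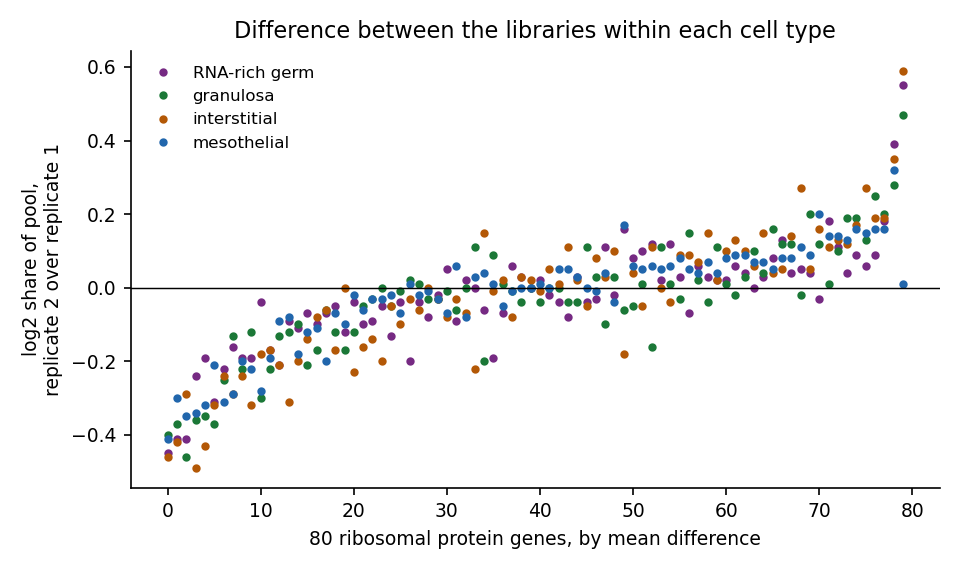
Log2 ratio of each member's share of the ribosomal protein pool, replicate 2 over replicate 1, for the 80 members with at least 50 UMIs in each sum, ordered by the mean. Colours are the 4 classes; most members lie near 0, Rpl35 is at the left end (-0.46 to -0.40 in each class) and Rpl26 at the right end, where its mesothelial point stays at 0.01.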

How the data were processed

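The deposited matrices are UMI counts, raw and whole, that the authors made with Cell Ranger 3.0.2 on GRCm38 (submitters' processing notes) without normalizing them; the kit version differs between labels and methods. A cell needed 500 genes and no more than 10% mitochondrial UMIs, which 3738 and 4464 cells met, and 96 and 93 doublets were removed with Scrublet in scanpy 1.11.5 at replicate 1's threshold of 0.225. Cells in several gates (104 and 389) or in none (229 and 292) were left out, except that Upk3b overrode the granulosa gate. Gate levels were 6, 4, 12 and 2 marker UMIs per 10000 for germ, granulosa, interstitial and mesothelial cells, with at least 2 UMIs, and were set after marker levels were seen. Members and lists were chosen with earlier results of these data known. Sums per library and class were tested with edgeR 4.0.16 (filterByExpr, TMM, quasi-likelihood test) and, as an alternative, DESeq2 1.42.0. On simulated counts for granulosa against interstitial cells (14902 genes, 200 changed), 53% of 2-fold and 99% of 4-fold changes were recovered, with 3.18% false calls. These counts were drawn independently, without shifts between the libraries, and all other genes were alike in all classes. They therefore cannot show how the pairing or wider differences between classes act on the calls. Single values of 1 member, also left out of the plot of fold changes, are not reported here. Named were the paralogs and parents, the 5 members with most UMIs, per comparison the 3 highest and 3 lowest with at least 50 UMIs in each sum, the 4 extreme pool shares, and 2 called genes per list. A library holds the same animals in all classes, so the library pairs them, and the main fit left this pairing out. Over all 14902 genes the deviations of the libraries correlated at 0.018 to 0.269 between classes. This covers all genes rather than the members, whose shifts between the libraries are given above. Calls with the library as a block are given as an alternative. Starts came from RefSeq, positions from GENCODE M21 by identifier. Reads shared with pseudogenes were counted as the authors' pipeline set it, so levels of members with close copies are uncertain.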

Additional observations from a re-analysis of the deposited data

Results flagged for a closer look

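The symbol rule leaves out 11 genes named as ribosomal protein copies, of which 10 had UMIs, and 3 of these carried more than 10000 UMIs over both libraries and were therefore set out as signal in data that no comparison used. Rpl36al, a copy of the X-linked Rpl36a, had 45274 UMIs and stood at 3.76 and 3.97 per 10000 in RNA-rich germ cells, 4.88 and 5.13 in granulosa, 3.26 and 3.18 in interstitial and 4.07 and 4.54 in mesothelial cells. Rps27rt had 42957 UMIs, at 3.44 and 3.48 in RNA-rich germ cells and between 3.71 and 4.38 in somatic cells. Rpl10-ps3 had 14299 UMIs, at 1.06 and 0.956 in RNA-rich germ cells and between 1.14 and 1.61 in somatic cells. For such close copies the division of reads between copy and parent was not tested.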

How the results depend on the processing

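Of the 690 values recomputed for 69 named gene results, 597 kept their side of the threshold, 32 lost and 61 gained a call, and 0 of them changed direction as a call. For RNA-rich germ against somatic cells, where 39 members were called, DESeq2 gave 73, thinning 59 and a 2-fold limit 8. The replicate block gave 40 lower and 7 higher, library sizes alone 41 and 9, and no filter 41 and 7. Over all genes DESeq2 called 4534 higher and 6979 lower of 14902, and thinning 3187 and 3324 of 9698. Leaving out a replicate gave member medians of -0.35 to -0.20 and 7 to 8 members over 2-fold. For RNA-rich against low-RNA germ cells (17 called), library sizes alone, scaling by other genes and thinning gave 0 (6 higher and 2 lower, 6 and 2, and 42 and 1 at an unadjusted p under 0.05), DESeq2 9, no filter 62, the replicate block 58, doublets kept 33, and a stricter gate, a split at 20000 UMIs and a 2-fold limit 1 each; medians without a replicate were 0.66 to 0.80, with 3 to 16 members over 2-fold. For granulosa against interstitial cells (1 called) these settings gave 8 with library sizes, 6 with scaling by other genes, 9 with DESeq2, 2 with no filter, 3 with the replicate block, 14 with a stricter gate, 3 with the 20000 split, 8 with thinning and 0 over 2-fold; medians were -0.05 to 0.05. For mesothelial against interstitial cells (3 called) they gave 12, 15, 23, 5, 9, 1 (lower), 7 and 2 in that order, and 0 with a mitochondrial limit of 5% or over 2-fold; medians were 0.19 to 0.22, with 0 to 2 members over 2-fold. For granulosa against mesothelial cells (1 called) they gave 4, 6, 17, 3, 3, 6, 3, 3 and 0; medians were -0.29 to -0.13. The cause of these changes was not tested. Counts of calls without a library were not run, since no residual degrees of freedom remain. Shares moved to 22.3% for RNA-rich germ cells and 28.9% for mesothelial cells without mitochondrially encoded genes, 22.3% for low-RNA germ cells at the 20000 split, and 27.2%, 27.5% and 26.9% for mesothelial cells with a stricter gate, the 5% limit and thinning. Thinning moved the pool change of Rpl9 to -1.14 and of Rpl10l to 6.43. The low-RNA germ sums held 42617 and 602913 UMIs, which limits all values on them.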

Other observations

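Some genes whose products are part of the ribosome or bind it were outside the symbol rule. Fau, whose product carries a small subunit protein behind a ubiquitin-like domain, was at 27.5 and 29.6 UMIs per 10000 in RNA-rich germ cells, 32.6 and 35.2 in granulosa, 27.0 and 29.0 in interstitial and 33.8 and 33.1 in mesothelial cells. Rack1, a scaffold on the small subunit, was at 8.02 and 8.08 in RNA-rich germ cells and between 9.67 and 12.3 in somatic cells, below each of them. The processed copy Rpl9-ps6 was at 0.129 and 0.106 in RNA-rich germ cells and between 0.293 and 0.435 in somatic cells, the same order as Rpl9.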
